A study of Rattus norvegicus with 218 samples.

Results

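The acetylcholine receptor genes examined here were Chrm2 and Chrm3, which encode the muscarinic M2 and M3 receptors, and Chrna4 and Chrnb2, which encode the nicotinic subunits alpha4 and beta2. They were taken by symbol from the table of threshold cycles (Ct) and are 4 of its 165 genes. Their transcripts were measured by multiplex microfluidic RT-qPCR in rat neurons of the DMV (the dorsal vagal motor nucleus). This nucleus lies in the brainstem and sends its axons into the vagus nerve. Cells stained for the neuronal protein NeuN were laser captured singly or pooled, from the left and the right DMV of adult male Sprague Dawley rats. The 3 naive animals had no surgery. The 4 sham animals received ketamine/xylazine anaesthesia and had a thread placed around the femoral vessels (vein and artery) of both legs but not tied. The 3 RIPC animals (remote ischemic preconditioning) received the same anaesthesia and had the femoral vessels of both legs ligated and released. Tissue was taken 2.5 hours after reperfusion in RIPC animals, and at the same time point in sham animals. The question was whether these receptor transcripts differ between treatments, between the sides of the nucleus and between single neurons, and how often alpha4 and beta2 occur together.

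Acetylcholine acts through 2 kinds of receptor. Muscarinic receptors are coupled to G proteins. M2 couples to inhibitory G proteins that lower cyclic AMP and open potassium channels, and it is known as the autoreceptor of many cholinergic neurons and as the receptor through which the vagus slows the heart. M3 couples to Gq, which releases calcium from internal stores. Nicotinic receptors are ion channels built of several subunits, and alpha4 together with beta2 forms the most common high-affinity type in the brain, whereas alpha7 can form channels of its own. The beta2 subunit also combines with other alpha subunits, so its transcript need not go with alpha4. Most DMV neurons are themselves cholinergic and make acetylcholine with the enzyme encoded by Chat.

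Samples with a Ct in fewer than 25% of the 168 assays were left out, and 185 of 213 samples remained, namely 97 single neurons and 88 pools of 2 to 8 cells. Single neurons and pools were spread unevenly over the treatments, with 57 and 24 samples in naive, 16 and 46 in sham, and 24 and 18 in RIPC animals. Naive replicate 3 alone gave 54 of the 97 single neurons. Single neurons had a value in a median of 68 assays (44 to 149), and pools in 96 (43 to 135). The neuronal markers Camk2a and Scn2a had a value in 96.9% and 94.8% of the single neurons, and the cholinergic markers Chat and Ache in 68.0% and 90.7%. The astrocyte marker Gfap had a value in 77.3% of the single neurons and in 77.3% of the pools, although the cells were picked by NeuN. Of the markers of other neuron types, Gad1 and Gad2 had a value in 34.0% and 45.4% of the single neurons, Th in 53.6% and Dbh in 20.6%.

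Beta2 was the most widely detected of the 4 receptor genes and alpha4 the least. Chrnb2 had a Ct in 86 of 97 single neurons (88.7%, 95% Wilson interval 80.8% to 93.5%) and in 84 of 88 pools (95.5%, 88.9% to 98.2%). Chrm2 had one in 71 single neurons (73.2%, 63.6% to 81.0%) and 72 pools (81.8%, 72.5% to 88.5%). Chrm3 was found in 27 single neurons (27.8%, 19.9% to 37.5%) and 49 pools (55.7%, 45.3% to 65.6%), and Chrna4 in 19 single neurons (19.6%, 12.9% to 28.6%) and 39 pools (44.3%, 34.4% to 54.7%). These intervals cover counting error only and take no account of the animal. Over all 165 genes the median share was 38.1% of single neurons and 61.4% of pools, and the receptors ranked 15th (Chrnb2), 36th (Chrm2), 92nd (Chrm3) and 107th (Chrna4) in single neurons. In pools they ranked 10th, 45th, 87th and 103rd. Thus Chrnb2 and Chrm2 lay above the median gene, while Chrm3 and Chrna4 lay below it in both sample types. Shares of different genes also depend on how sensitive each assay was, and assay efficiencies are not given in the sources used here.

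Of the 4 genes, Chrm3 most often had a Ct above 20. The median Ct in single neurons was 14.5 cycles for Chrm2, 14.5 for Chrnb2, 15.7 for Chrna4 and 16.8 for Chrm3. A lower Ct means more product of the same assay, but medians of different assays cannot be read as amounts. A Ct above 20 was found in 0 of 71 single neurons for Chrm2, 1 of 86 for Chrnb2 and 1 of 19 for Chrna4, but in 5 of 27 for Chrm3. In pools the same was true of 0 of 72, 2 of 84, 1 of 39 and 7 of 49 values. Of the 14703 values of all 165 genes in the samples that passed the limit (first runs, duplicate assays averaged), 4.56% were above 20, against 18.5% and 14.3% of the Chrm3 values in single neurons and pools.

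Detection of the receptors with fewer values moved with how many assays had worked in a neuron. In the 32 single neurons with 44 to 62 assays, Chrna4 had a value in 2 (6.25%), in the 46 with 63 to 83 assays in 7 (15.2%), and in the 19 with 84 to 149 assays in 10 (52.6%). Chrm3 went from 12.5% through 28.3% to 52.6% over the same classes, and Chrnb2 from 71.9% through 95.7% to 100%. Chrm2 varied least, with 68.8%, 71.7% and 84.2%. The number of assays includes the receptor itself and every gene detected alongside it, so these shares are a description. Detection also differed with the number of cells in a sample. Chrm3 had a value in 27.8% of single cells, 50% of samples of 2 to 3 cells, 52.2% of those of 4 and 61.5% of those of 5 or more, and Chrna4 in 19.6%, 34.6%, 43.5% and 51.3%. Chrm2, at 73.2%, 92.3%, 69.6% and 82.1%, showed no such order, and Chrnb2 stayed between 88.7% and 96.2%.

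**Figure D1:**
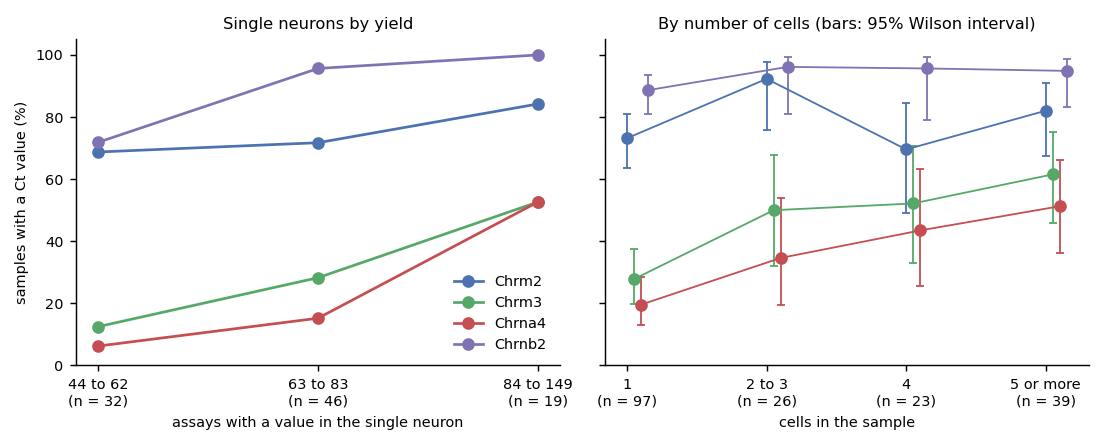
The share of samples with a Ct for each receptor gene (y axis, percent) is plotted for single neurons by the number of assays with a value (left panel) and for all samples by the number of cells (right panel, bars are 95% Wilson intervals). Chrna4 (red) and Chrm3 (green) climb to 52.6% in the neurons with 84 or more assays and are more frequent with more cells, while Chrnb2 (purple) is above 70% in every class.

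Of the 213 samples, 5 single neurons had been run a second time, and the calls of all 4 receptors differed between the runs in some of these neurons. The first run of 1 of the 5 had 36 assays with a value, below the sample limit. Chrm2 had a value in both runs of 3 neurons and in 1 run of the other 2. Chrnb2 had a value in both runs of 3 neurons, in 1 run of 1 and in neither run of 1. Chrm3 was found in both runs of 1 neuron, with Ct values 8.25 cycles apart, in 1 run of 3 neurons and in neither run of 1. Chrna4 was never found in both runs, was found in 1 run of 2 neurons and in neither run of 3. The absence of a value therefore does not show that a transcript was absent. All shares given here rest on the first run.

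Within most animals Chrm2, Chrm3 and Chrna4 were found more often in pools than in single neurons, but no receptor passed the test across all genes. In the 8 animals with at least 2 samples of each type, Chrm2 had a value in 86.5% ± 13.2 of pools and 62.5% ± 27.8 of single neurons (SD, n = 8). Chrm3 had a value in 48.9% ± 26.8 and 27.2% ± 15.0, and Chrna4 in 44.2% ± 27.7 and 21.0% ± 11.2. Chrnb2, with 95.1% ± 5.72 and 92.0% ± 9.47, had little room to be higher. Pools exceeded single neurons for Chrna4 and Chrm3 in 7 of 8 animals each, for Chrm2 in 6 and for Chrnb2 in 4. Limma called 22 of 131 genes (16.8%), each higher in pools, and 0 of the 4 receptors. The differences were 24.1 percentage points for Chrm2 (95% interval 2.32 to 45.8, adjusted p 0.103), 21.7 for Chrm3 (-0.13 to 43.5, adjusted p 0.143), 23.2 for Chrna4 (4.24 to 42.1, adjusted p 0.0779) and 3.13 for Chrnb2 (-12.4 to 18.7, adjusted p 0.749). The median over all 131 genes was 15.9 points, and 119 genes had a difference above 0. The exact sign-flip permutation p was 0.0469 for Chrm2 and 0.03125 for Chrna4, before adjustment, and 0.0078 is the smallest that 8 animals allow. The receptor calls turned on single animals. Without RIPC replicate 1 Chrm2 passed (27.5 points, adjusted p 0.0379) and so did Chrna4 (28.3 points, adjusted p 0.0196). Without sham replicate 2, in which 0 of 3 single neurons and 10 of 11 pools had Chrm2, the Chrm2 difference was 14.5 points (adjusted p 0.260). Without RIPC replicate 3, which had 2 pools, Chrm3 passed (31.3 points, adjusted p 0.0247). The number of genes called went to 58 and 5 without RIPC replicate 1 and without sham replicate 1.

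Levels are given as Ct relative to the median Ct of the 35 most detected genes in the same sample, with the sign turned, in cycles. A higher level means more transcript, 0 is the median of those genes, and a sample without a value has no level. Levels of different genes are not comparable as amounts. Chrm2 had a mean level of -0.08 ± 0.59 in pools and 0.06 ± 0.61 in single neurons of the same 7 animals, and Chrnb2 of -0.09 ± 0.34 and -0.33 ± 0.37 in 8 animals, differences of -0.14 (95% interval -0.74 to 0.45) and 0.24 cycles (-0.24 to 0.72). For Chrna4, 3 animals had at least 2 detected samples of each type. It was lower in pools in each of the 3, by 2.28 cycles in naive replicate 3, 1.89 in RIPC replicate 2 and 3.67 in RIPC replicate 3. In 5 other animals, left out because only 1 single neuron had a Chrna4 value, the order was mixed. The mean of the pools was above that neuron in sham replicates 1 (-2.30 against -3.35), 2 (-1.31 against -1.64) and 4 (-3.97 against -9.10), and below it in sham replicate 3 (-3.48 against -3.09) and RIPC replicate 1 (-3.89, 1 pool, against -2.06). The 3 animals with at least 2 of each type include no sham animal, and their means were -4.27 ± 0.31 in pools and -1.65 ± 1.00 in single neurons (SD, n = 3), a difference of -2.61 cycles (95% interval -4.04 to -1.18). Limma's adjusted p was 0.285 over 104 genes, of which 0 (0%) were called and 10 had an unadjusted p under 0.05. Chrm3 had such values in 2 animals, with differences of 0.34 and -0.94 cycles, and was not tested. In a pool, fewer cells that hold a transcript and less of it per cell cannot be told apart.

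Every single neuron with the alpha4 transcript also had the beta2 transcript. Of the 97 single neurons, 19 had both Chrna4 and Chrnb2 (19.6%, Wilson interval 12.9% to 28.6%), 67 had Chrnb2 alone, 11 had neither and 0 had Chrna4 alone, which allows a share of up to 3.09% by counting error alone (3 counts of 97, all neurons taken as independent). Of the 88 pools, 39 had both, 45 Chrnb2 alone, 4 neither and 0 Chrna4 alone, but only the 4 without Chrnb2 could have shown Chrna4 alone, and transcripts found in a pool need not come from the same cell. By animal, both were found in 0 of 3 neurons of naive replicate 2 and 8 of 54 of naive replicate 3. In sham replicates 1 to 4 the counts were 1 of 7, 1 of 3, 1 of 1 and 1 of 5, and in RIPC replicates 1 to 3 they were 1 of 4, 3 of 9 and 3 of 11. The mean of the 8 animals with at least 2 single neurons was 21.0% ± 11.2 (SD), with 7.41% ± 10.5 in naive (n = 2), 22.5% ± 9.77 in sham (n = 3) and 28.5% ± 4.31 in RIPC animals (n = 3).

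**Figure D2:**
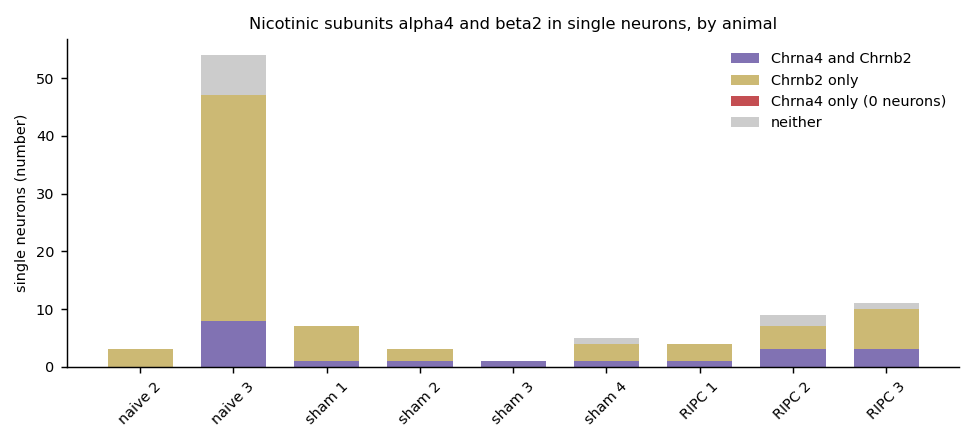
Stacked bars give the number of single neurons (y axis) of each animal (x axis) with Chrna4 and Chrnb2, with Chrnb2 only, with Chrna4 only and with neither. No bar holds a neuron with Chrna4 only, and naive replicate 3 gives 54 of the 97 neurons.

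Beta2 was found in most neurons without alpha4 too, in 67 of 78 (85.9%). The product of the 2 shares over all neurons was 17.4%, against 19.6% observed. Neurons with both had a median of 84 assays with a value, those with Chrnb2 only 68, and those with neither 53. Among the 19 neurons with 84 or more assays Chrnb2 had a value in all 19, so there alpha4 could not have been found without it. Among the 78 neurons with fewer assays Chrna4 was found in 9 of 67 with Chrnb2 and in 0 of 11 without. Nor was beta2 alone in this. Of the 164 other genes, 13 had a value in all 19 neurons with Chrna4, among them Chrnb2 itself, the alpha7 gene Chrna7, Camk2a, Scn2a and Map2. In the 43 single neurons of the animals other than naive replicate 3, both transcripts were found in 11 and Chrna4 without Chrnb2 in 0. Counting a Ct of at most 20 only, the mean of animals was 18.5% ± 13.5 (n = 8). With the limit raised to 50% of the assays, which left 3 animals with at least 2 single neurons, it was 65.4% ± 30.0.

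Single neurons most often held M2 with beta2. Of 97 neurons, 44 (45.4%) had Chrm2 and Chrnb2 and neither of the other receptors, and they came from 7 animals. Chrm2, Chrm3 and Chrnb2 were found together without Chrna4 in 10 neurons, Chrnb2 alone in 7, Chrm3 with Chrnb2 in 6, and Chrm2 alone in 5. All 4 receptors were found in 6 neurons from 2 animals and none in 5. The number of receptors was 2 in 55 neurons, 3 in 19, 1 in 12, and the median number of assays with a value went from 49 in the neurons with none to 95 in those with all 4. No neuron had Chrm3 or Chrna4 as its only receptor. Both muscarinic genes were found in 17 neurons, Chrm2 without Chrm3 in 54, Chrm3 without Chrm2 in 10 and neither in 16. Chrm3 thus had a value in 23.9% of the neurons with Chrm2 and 38.5% of those without, although both classes had a similar number of assays (medians 69 and 68). The lower share with Chrm2 was seen outside naive replicate 3, where Chrm3 was found in 3 of 26 neurons with Chrm2 and 8 of 17 without. In naive replicate 3 itself it was found in 14 of 45 and 2 of 9, which is the other direction. Chrna4 had a value in 11 of 71 neurons with Chrm2 and 8 of 26 without, again with opposite directions outside naive replicate 3 (3 of 26 and 8 of 17) and within it (8 of 45 and 0 of 9). These splits use measured values of the same neurons and were not tested.

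Turning to the treatments, no receptor passed a test in pools or in single neurons. Limma called 0 of 130 genes (0%) by share of pools in each of the 3 contrasts. At an unadjusted p under 0.05 there were 2 genes for sham minus naive, 4 for RIPC minus naive and 1 for RIPC minus sham, none of them a receptor. For the share of single neurons it called 0 of 123 genes (0%) in each contrast, with 6, 3 and 5 genes at an unadjusted p under 0.05, again without a receptor. Chrnb2 had a value in more than 95% of pools and was left out of the fit for pools. How many of all genes had groups that did not overlap was not counted. Groups without overlap, named below for some genes, are therefore a description only.

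Among the shares of pools of the 3 of these 4 receptors that were tested, that of Chrna4 had the smallest unadjusted p (0.0914 in limma, for sham minus naive). Chrna4 had a value in 1 of 3, 2 of 10 and 3 of 11 pools of naive replicates 1 to 3 (33.3%, 20% and 27.3%). In sham replicates 1 to 4 it had one in 3 of 7, 6 of 11, 8 of 11 and 10 of 17 (42.9%, 54.5%, 72.7% and 58.8%). The lowest sham animal was thus above the highest naive one, while the RIPC animals, with 1 of 8, 3 of 8 and 2 of 2 pools (12.5%, 37.5% and 100%), covered the range of both. The means were 26.9% ± 6.68 in naive, 57.2% ± 12.3 in sham and 50% ± 45.1 in RIPC animals (SD, n = 3, 4 and 3). Sham minus naive was 30.4 percentage points (95% interval -5.41 to 66.1), which limma gave an adjusted p of 0.932. An exact permutation over animals gave 0.0571 and cannot go below 0.0286. The difference was 15.4 points when only samples with a value in at least 50% of the assays were used, the limit stated in the study's methods, and 22.4 points with the number of detected assays as a covariate (adjusted p 0.983 and 0.911 in limma). Over all 130 genes the median of sham minus naive was 7.43 points, and 95 genes had a difference above 0. RIPC minus naive was 23.1 points for Chrna4 (-15.1 to 61.4, adjusted p 0.996) and was -1.87 without RIPC replicate 3, which had 2 pools. RIPC minus sham was -7.24 points (-43.0 to 28.5, adjusted p 0.994), and 11.5 without RIPC replicate 1. The pools of RIPC replicate 1 had a median of 56.5 assays with a value, against 104 and 93.5 in RIPC replicates 2 and 3. Over all genes the median of RIPC minus sham was -5.90 points, and 37 genes had a difference above 0. These 3 contrasts share their animals. In single neurons Chrna4 was found in 0 of 3 and 8 of 54 naive, in 14.3%, 33.3% and 20% of the neurons of sham replicates 1, 2 and 4, and in 25%, 33.3% and 27.3% of those of RIPC replicates 1 to 3. The RIPC animals all lay above both naive animals, by 21.1 points on average (95% interval -9.70 to 52.0, adjusted p 0.904 in limma), and the exact permutation p of 0.1 is the smallest that 3 against 2 animals can give. Over all 123 genes the median of this contrast was 4.71 points, and 76 genes had a difference above 0.

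The other nicotinic subunit, beta2, was found in most samples of every animal, with the lowest share in the single neurons of RIPC replicate 2 (77.8%). Among pools Chrnb2 had a value in 96.7% ± 5.77 in naive, 92.7% ± 5.98 in sham and 100% in RIPC animals, and in the same order it had one in 93.5% ± 9.17, 93.3% ± 11.5 and 89.6% ± 11.2 of single neurons. Its groups overlapped in every contrast. For pools the smallest exact permutation p was 0.143, for RIPC against sham.

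**Figure D3:**
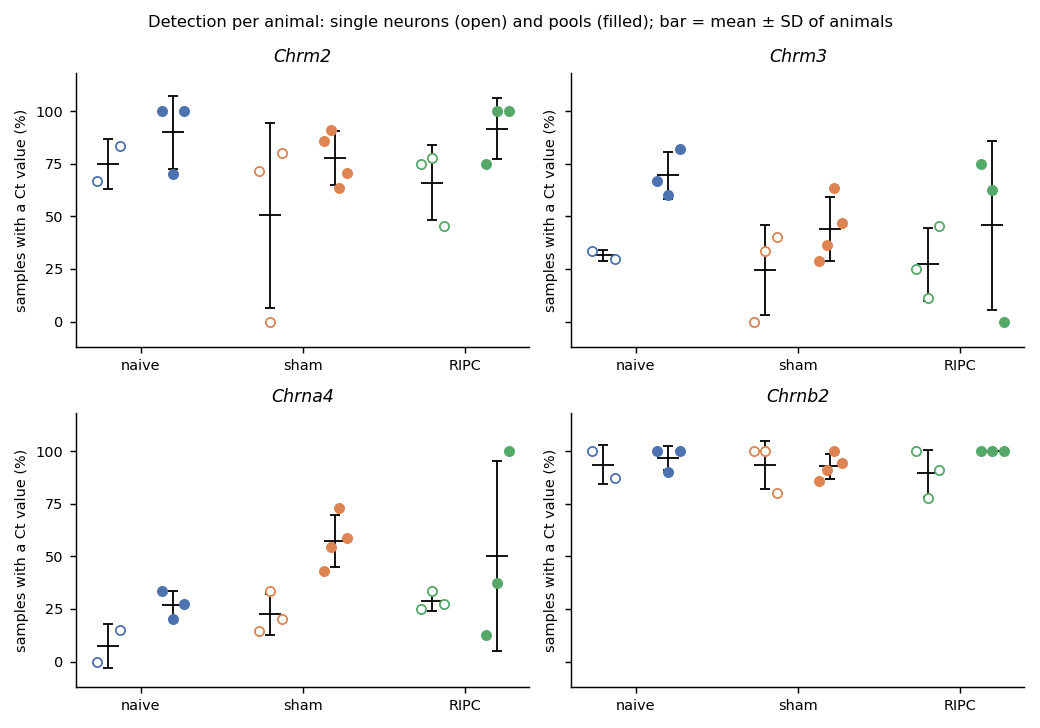
Each point is the share of an animal's samples with a Ct (y axis, percent), for single neurons (open, animals with at least 2) and pools (filled), and the bars are the mean ± SD of animals. The 4 sham animals lie above the 3 naive animals for Chrna4 in pools, and the RIPC animals spread from 12.5% to 100%.

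For the muscarinic genes the groups overlapped. The share of pools with Chrm2 was 90% ± 17.3 in naive, 77.7% ± 12.7 in sham and 91.7% ± 14.4 in RIPC animals, and single animals ranged from 63.6% in sham replicate 3 to 100% in 4 animals. In single neurons it had a value in 75.0% ± 11.8, 50.5% ± 43.9 and 66.1% ± 17.9, where the sham mean includes 0 of 3 neurons of sham replicate 2. Pools of that animal had Chrm2 in 10 of 11. Chrm3 had a value in 66.7%, 60% and 81.8% of the pools of naive replicates 1 to 3, in 28.6%, 36.4%, 63.6% and 47.1% of those of sham replicates 1 to 4, and in 75.0%, 62.5% and 0% (0 of 2 pools) of those of RIPC replicates 1 to 3. The naive animals were highest on average (69.5% ± 11.2, against 43.9% ± 15.2 and 45.8% ± 40.2), and 1 sham animal lay within their range. Sham minus naive was -25.6 points (95% interval -60.5 to 9.31, adjusted p 0.932 in limma), with an exact permutation p of 0.0857. RIPC minus naive was -23.7 points (-61.0 to 13.6, adjusted p 0.996) and -0.74 without RIPC replicate 3. In single neurons Chrm3 had a value in 31.5% ± 2.62, 24.4% ± 21.4 and 27.2% ± 17.3 of naive, sham and RIPC neurons (n = 2, 3 and 3), and the largest difference, sham minus naive, was -7.04 points (-40.7 to 26.6).

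Among pools in which a receptor was detected, Chrm3 had the largest difference in level. Its mean level was -3.12, -2.51 and -3.21 cycles in naive replicates 1 to 3, and -5.53, -2.57, -2.50 and -5.13 in sham replicates 1 to 4. It was -4.74 and -7.36 in RIPC replicates 1 and 2, and RIPC replicate 3 had no value. The 2 RIPC animals with a level lay below the 3 naive animals, and the sham animals overlapped with both groups. The group means were -2.94 ± 0.38, -3.93 ± 1.62 and -6.05 ± 1.86 (SD, n = 3, 4 and 2). RIPC minus naive was -3.11 cycles (95% interval -5.42 to -0.80), with an unadjusted p of 0.0126 and an adjusted p of 0.416 in limma, and the exact permutation p of 0.1 is the smallest possible. The size depended on which RIPC animal was kept. With RIPC replicate 2 alone it was -4.42 cycles, and with RIPC replicate 1 alone -1.79 (adjusted p 0.401 and 0.714 in limma, alternatives chosen after seeing the data, with the lone RIPC animal assumed to vary like the other groups). RIPC minus sham was -2.12 cycles (-4.31 to 0.07, adjusted p 0.977) and sham minus naive -0.99 cycles (-2.92 to 0.94, adjusted p 0.984). Of the 11 RIPC pools with a Chrm3 value 5 had a Ct above 20, 3 in RIPC replicate 1 and 2 in RIPC replicate 2, against 1 of 17 naive and 1 of 21 sham pools. The part of these late values in the difference was not tested. Single neurons did not show the same order, with median levels of -2.07 in 17 naive, -2.75 in 3 sham and -2.05 in 7 RIPC neurons.

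The level of the other receptors in pools differed less. Chrna4 had a mean level of -3.93 ± 0.96 in naive (n = 2), -2.76 ± 1.2 in sham (n = 4) and -4.09 ± 0.12 in RIPC animals (n = 2). The 2 RIPC animals with at least 2 detected pools, at -4.01 and -4.18, lay below the 4 sham animals in Chrna4 level. RIPC replicate 1, left out with 1 detected pool, was at -3.89 and lay above sham replicate 4 at -3.97. RIPC minus sham was -1.33 cycles (95% interval -3.12 to 0.46, adjusted p 0.977 in limma), and an exact permutation over animals gave 0.133 and cannot go below 0.0667. Chrm2 had 0.03 ± 0.07, -0.22 ± 0.41 and 0.16 ± 0.86, and Chrnb2 -0.47 ± 0.75, -0.11 ± 0.56 and -0.31 ± 0.23 (n = 3, 4 and 3). No contrast of these 3 genes had an unadjusted p under 0.05, and the intervals of Chrm2 and Chrnb2 reached 1.54 cycles at most in either direction. Limma called 0 of 99 genes (0%) by level in each contrast, with 0 genes at an unadjusted p under 0.05 for sham minus naive, 4 for RIPC minus naive, of which Chrm3 was 1, and 3 for RIPC minus sham. Chrnb2 levels lay mostly within 2 cycles of 0, with a few values far below, down to -10.48 in a neuron of naive replicate 3 and -7.41 in a pool of sham replicate 4.

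**Figure D4:**
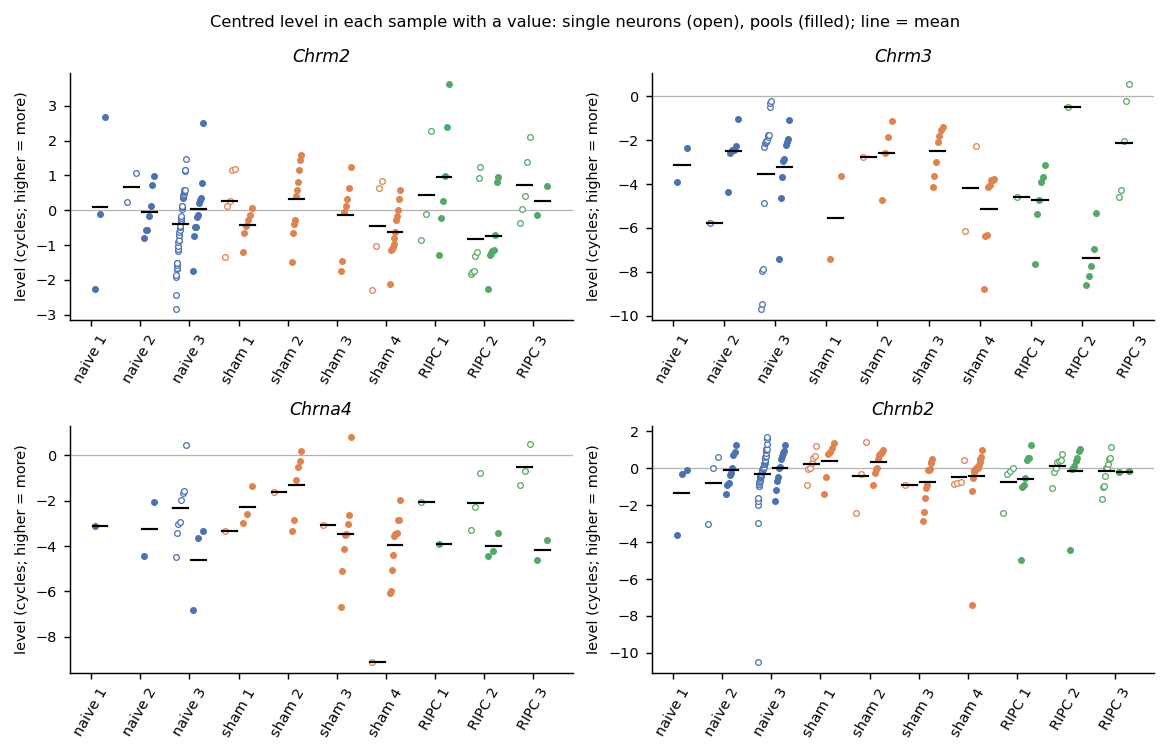
Each point is the centred level (y axis, cycles, higher is more transcript) in 1 sample with a Ct, by animal (x axis), for single neurons (open) and pools (filled), and the short lines are the means. The pools of RIPC replicate 2 have the lowest mean Chrm3 level (-7.36), and 1 naive neuron has a Chrnb2 level of -10.48.

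No receptor differed between left and right DMV beyond the spread of animals. Sides were compared within the 9 animals with at least 2 samples on each side, over single neurons and pools together. Of all samples that passed the limit, 51 of 98 on the left and 46 of 87 on the right were single neurons. This mix was not matched within each animal. Limma called 0 of 132 genes (0%) by share, with 4 at an unadjusted p under 0.05, and 0 of 123 (0%) by level, with 3, and no receptor was among them. Chrna4 had the largest difference, with a value in 31.4% ± 21.3 of left-side and 42.1% ± 24.3 of right-side samples (SD, n = 9). It was less frequent on the left in 5 animals, more frequent in 2 and equal in 2, and left minus right was -10.8 points (95% interval -24.4 to 2.86, adjusted p 0.996). The difference came mainly from sham replicate 2, with 2 of 7 left and 5 of 7 right samples, and RIPC replicate 2, with 2 of 11 and 4 of 6. In single neurons alone left minus right was 3.18 points. Chrm2 had a value in 71.5% ± 14.5 of left and 74.3% ± 16.3 of right samples, Chrm3 in 44.1% ± 16.6 and 40.2% ± 13.9, and Chrnb2 in 95.1% ± 6.02 and 91.2% ± 7.09. Their differences were -2.81 points (95% interval -16.1 to 10.5), 3.84 (-8.51 to 16.2) and 3.96 (-7.87 to 15.8).

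In level, left minus right was 0.12 cycles for Chrm2 (95% interval -0.44 to 0.68), 0.60 for Chrm3 (-0.47 to 1.67), 0.61 for Chrna4 (-0.42 to 1.63) and -0.20 for Chrnb2 (-0.84 to 0.44), over 9, 8, 6 and 9 animals. Chrnb2 was lower on the left in 7 of 9 animals, and the exact sign-flip permutation p was 0.523. Whether the side difference depended on treatment was asked with a moderated F test over the 3 treatments, which called 0 of 132 genes (0%) by share and 0 of 111 (0%) by level. The p for the 4 receptors ranged from 0.181 (Chrm2) to 0.855 (Chrnb2) by share.

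**Figure D5:**
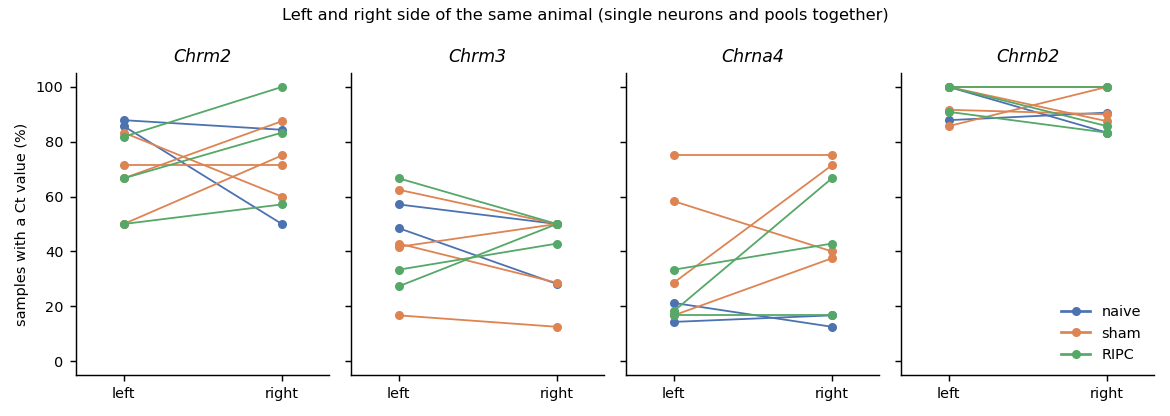
Each line joins the left and the right share of samples with a Ct (y axis, percent) of 1 animal, coloured by treatment, for the 9 animals with at least 2 samples on each side. Lines cross in all 4 panels, and Chrna4 has the steepest lines, in sham replicate 2 and RIPC replicate 2.

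The table holds 6 other genes of the acetylcholine system, namely the muscarinic receptors Chrm1, Chrm4 and Chrm5, the nicotinic subunit Chrna7, and the enzymes of synthesis and breakdown, Chat and Ache. Chrm1 had a value in 75.3% of single neurons and 92.0% of pools and Chrm5 in 70.1% and 89.8%, similar to Chrm2, whereas Chrm4 had one in 8.25% and 13.6%, fewer than Chrm3. The nicotinic subunit Chrna7 had a value in 75.3% and 78.4%, well above Chrna4. None of the 6 was called between treatments, by share of pools (6 tested), level in pools (5 tested) or share of single neurons (5 tested), and none had an unadjusted p under 0.05 there. None was called between left and right either. Between pools and single neurons 2 of the 6 were called by share, Chrm1 (26.2 points higher in pools, adjusted p 0.0428 in limma) and Chrm5 (29.8 points, adjusted p 0.0176), each higher in 7 of 8 animals. Over all genes 22 of 131 (16.8%) were called in this comparison, each higher in pools, and the median difference was 15.9 points. Chrm4 had a value in 0 of 24 naive pools, which allows a share of up to 12.5% by counting error alone (3 counts of 24, all pools taken as independent). By animal it had one in 0% of naive pools, 22.8% ± 11.5 of sham pools and 4.17% ± 7.22 of RIPC pools. All 4 sham animals thus lay above the naive ones in pools, for which limma's adjusted p was 0.932 and the exact permutation p 0.0571, as for Chrna4 in the same contrast. Single neurons had another order, where Chrm4 had a value in 5 of 57 neurons of naive animals, 3 of 24 of RIPC animals and 0 of 16 of sham animals, the last of which allows a share of up to 18.8% by counting error alone.

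The receptors were also set beside genes that mark kinds of neuron, within single neurons. Chrna4 had a value in 16 of 66 neurons with Chat (24.2%) and 3 of 31 without (9.68%), and Chrnb2 in 61 (92.4%) and 25 (80.6%). Outside naive replicate 3 the counts for Chrna4 were 10 of 29 and 1 of 14, and for Chrnb2 29 of 29 and 10 of 14. Within it Chrna4 was found in 6 of 37 and 2 of 17, and Chrnb2 in 32 of 37 and 15 of 17. Neurons with Chat had a median of 72 assays with a value and those without of 63. Chrm2, the M2 autoreceptor gene, was found in 51 of the 66 neurons with Chat (77.3%) and 20 of 31 without (64.5%). With Gad1 or Gad2, which encode the enzymes of GABA synthesis, the order was reversed for Chrm2, in 31 of 49 neurons (63.3%) against 40 of 48 without (83.3%), at medians of 71 and 68 assays. Outside naive replicate 3 these counts were 14 of 28 and 12 of 15, and within it 17 of 21 and 28 of 33. Chrm3 had the opposite order, in 18 of 49 (36.7%) against 9 of 48 (18.8%), with 9 of 28 and 2 of 15 outside naive replicate 3 and 9 of 21 and 7 of 33 within it. Beside Th, which encodes the rate-limiting enzyme of catecholamine synthesis, Chrm2 was found in 65.4% of 52 neurons with it and 82.2% of 45 without, and Chrm3 in 34.6% and 20%. Outside naive replicate 3 Chrm2 was found in 11 of 25 with Th and 15 of 18 without, and within it in 23 of 27 and 22 of 27.

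Among the splits by Chat, Gad1 or Gad2, Th and Fos, the largest difference in share was that of Chrna4 by Fos, a gene induced by neuronal activity. Chrna4 had a value in 9 of 13 neurons with Fos (69.2%) and 10 of 84 without (11.9%). The neurons with Fos had a median of 94 assays and those without of 68. Among the neurons with 84 or more assays Chrna4 was found in 9 of 11 with Fos and 1 of 8 without, and among those with fewer in 0 of 2 and 9 of 76. By animal, 5 of 6 and 3 of 48 were found in naive replicate 3 and 3 of 3 and 0 of 8 in RIPC replicate 3, while in RIPC replicate 2, which had no neuron with Fos, Chrna4 was found in 3 of 9. Outside naive replicate 3 the counts were 4 of 7 with Fos and 7 of 36 without.

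Likeness of detection over the 97 single neurons was measured with the phi coefficient, among 115 genes with a value in 10% to 90% of them. Genes measured in a neuron share its library and its number of assays with a value, and the median coefficient lay above 0 for each of the 4 receptors. The 3 genes most like Chrna4 were Cacna1g, which encodes a T-type calcium channel (phi 0.50), Fos (0.49) and Ppard, a nuclear receptor gene (0.45), against a median of 0.13. Among neurons with 84 or more assays Chrna4 had a value in 9 of 10 with Cacna1g and 1 of 9 without, and among those with fewer in 5 of 17 and 4 of 61. For Chrm3 they were the serotonin receptor gene Htr7 (0.39), the somatostatin receptor gene Sstr4 (0.35) and the natriuretic peptide receptor gene Npr2 (0.33), against a median of 0.09. Chrna4 was 6th for Chrm3, with a phi of 0.27, and was found in 10 of 27 neurons with Chrm3 and 9 of 70 without. For Chrm2 the coefficients were low, with 0.31 for the serotonin receptor gene Htr2a and 0.30 for the adrenergic receptor gene Adra2a. Chrm3 and Chrna4 had coefficients of -0.14 and -0.17 with Chrm2, below the median of 0.04.

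For Chrnb2 the most similar gene was the astrocyte marker Gfap (0.51), followed by Foxo3, which encodes a forkhead transcription factor (0.35), and Map2, which encodes a microtubule protein of neurons (0.32). Chrnb2 had a value in 55 of 57 neurons with Gfap and 12 of 21 without among those with fewer than 84 assays, and in 18 of 18 and 1 of 1 among the rest. In naive replicate 3 it was found in 38 of 38 neurons with Gfap and 9 of 16 without. What part astrocyte transcripts in the captures or the yield of a sample have in this was not tested.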

How the data were processed

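Threshold cycles of 168 assays for 165 genes were deposited by the authors in 218 columns, as a table of raw Ct values with no normalization, in which an assay below the limit of detection has no value. Per the labels, samples were lysed and their transcripts measured on a Fluidigm Biomark system with a DNA-binding dye. Which chip held which sample was not known, and no batch term for chip was fitted. Preamplification, primer efficiency and failed reactions can each leave a transcript without a value. No column was left unmapped (0 columns).

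Treatment, animal, side and number of cells came from the labels, and the animal was the replicate. Cells of an animal were not treated as replicates. First runs were used and the second runs of 5 samples served only to compare runs. Duplicate assays of a gene were averaged. The study's methods state a limit of 50%, but the number of samples they give is the 190 columns that a limit of 25% keeps, so 25% was the main setting and 50% an alternative. One RIPC replicate 3 single neuron has a title that begins like those of RIPC replicate 2 and was kept as labelled.

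Detection is the share of an animal's samples with a Ct. Genes with a value in 10% to 95% of the samples were tested by share. Levels are defined in the results and needed at least 2 detected samples per animal, and at least 2 animals per group for treatment contrasts. Models over animals were fitted to all genes (two-sided) in R 4.3.3 using limma 3.58.1 and Benjamini-Hochberg adjustment at 0.05. Intervals are 95% limits from these fits. Animals with no value for a gene were left out of its fit. Exact two-sided permutation tests over animals were also run for the 4 receptors. These numbered 52. Before adjustment 2 of them were under 0.05, and after Benjamini-Hochberg adjustment over all 52 the lowest was 0.743. Exact tests of the other acetylcholine genes, and that of the flagged Chrm2 side difference, are outside this family and were not adjusted. The fits were tested on simulated data.

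The members, gene lists and comparisons were chosen with earlier results of these data known. The genes named are the 4 receptors, the other genes of the study's acetylcholine list that the table holds, and for each receptor the 3 with the highest phi, of which 1 is not reported here. Gad1 or Gad2, Th and Fos were added for co-occurrence, and cell type markers for the check of the samples. Camk2a, Scn2a and Map2 also stand as examples of genes found in every neuron with Chrna4, picked after their values were seen. Alternatives covered the sample limit, gene filter, second runs, scale, centring, undetected values, number of detected assays, sample type, the animal number as a block and leaving out each animal. All 165 symbols matched RefSeq's rat gene table when case was ignored.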

Additional observations from a re-analysis of the deposited data

Results flagged for a closer look

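The share of samples with Chrm2 was higher on the left in both naive animals with enough samples and lower on the left in all 3 RIPC animals. Left minus right was 35.7 percentage points in naive replicate 2 (6 of 7 left and 3 of 6 right samples) and 3.50 in naive replicate 3. It was -16.7, -18.2 and -7.14 points in RIPC replicates 1 to 3. The means of the groups differed by 33.6 points. This difference was picked because the 2 groups lay on opposite sides of 0. An exact permutation between them therefore had to give 0.1, the smallest p that 2 against 3 animals allow, and adds no support. Limma's F test over the 3 treatments gave a p of 0.181 and an adjusted p of 1.00 over 132 genes. In sham animals the difference was -20.8, 0, -25.0 and 23.3 points. No animal stood apart from its group by Dixon's criterion in the 22 groups of 4 to 10 animals examined for the receptors, where chance flags about 1 in 20. These were the pools of sham animals and the within-animal differences over all treatments. The naive and RIPC groups, and the shares of single neurons by treatment, had fewer than 4 animals and were not examined.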

How the results depend on the processing

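Across 705 values of the receptors under alternatives, 646 kept direction and side of the threshold, 3 passed it (pools minus single neurons, given above) and 56, from 25 of 48 results, reversed, all of differences that had not passed. The cause was not tested. Differences are in percentage points for shares and in cycles for levels. At a limit of 50% of the assays, RIPC minus sham for Chrna4 in pools was 15.9 points, RIPC minus naive for Chrm3 in single neurons 28.9 (1 naive animal against 2 RIPC animals), and left minus right for Chrm3 -3.85. The levels at 50% were -0.60 (Chrm2, RIPC minus naive) and -0.23 (RIPC minus sham) cycles in pools and -0.16 for Chrna4 left minus right. That limit called 1 gene for RIPC minus naive in pools and 28 in single neurons, where 0 were called at 25%. The 28 come from the same 1 naive and 2 RIPC animals, with the lone naive animal assumed to vary like the RIPC ones, and carry no weight. The limit put the mean co-detection of Chrna4 and Chrnb2 at 65.4% over these 3 animals. Without a limit, shares in pools were -6.06 (Chrm2, RIPC minus naive) and -3.31 (Chrm3, RIPC minus sham). In single neurons they were 8.06, 8.36 and 0.303 for Chrnb2 (sham minus naive, RIPC minus naive, RIPC minus sham) and 4.04 for Chrm3 (RIPC minus naive), and the Chrm2 level for RIPC minus naive was -0.0742. With the number of detected assays as a covariate, RIPC minus sham was -0.469 (Chrm3) and 0.00795 (Chrna4) in pools and -0.853 (Chrm3) in single neurons, and levels were 0.0299 (Chrm2, sham minus naive) and 0.35 (Chrna4, RIPC minus naive). With Ct not centred, levels of Chrm2 were 0.45 (sham minus naive) and -0.0947 (RIPC minus sham), and that of Chrna4 0.0338 (RIPC minus naive). With undetected values set 1 cycle below the lowest, RIPC minus naive was 0.74 for Chrna4 and RIPC minus sham 0.43 for Chrnb2. On the arcsine square root scale RIPC minus naive for Chrm2 in pools was -0.0129. Left minus right in single neurons alone was 3.18 (Chrna4) and -0.617 (Chrnb2) by share and -0.56 (Chrm2) by level, and in pools alone -0.26 (Chrna4) by level.

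Whether the animal numbers pair animals of different treatments was not tested. Same-numbered animals had deviations from their group means, in shares of pools, correlated at -0.367 to 0.365 (median 0.150). Animals with other numbers had them at -0.441 to 0.398 (median -0.0535). These ranges overlap, and so few animals cannot decide it. With the replicate number as a block 0 genes were called in all 9 treatment contrasts, and Chrnb2 in single neurons (sham minus naive) was 1.29 and Chrm3 (RIPC minus naive) 1.83.

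Leaving out each animal in turn gave ranges that cross 0 for 18 differences. For shares of pools they were -8.33 to 10.0 (Chrm2) and -1.87 to 41.9 (Chrna4) for RIPC minus naive, and -12.7 to 24.8 (Chrm3) and -32.2 to 11.5 (Chrna4) for RIPC minus sham. For single neurons they were -39.3 to 0.714 (Chrm2), -14.8 to 5.19 (Chrm3) and -6.67 to 6.48 (Chrnb2) for sham minus naive, -17.3 to 1.39, -13.4 to 3.75 and -10.4 to 2.53 for RIPC minus naive, and -9.64 to 30.4, -9.48 to 10.8 and -10.4 to 2.12 for RIPC minus sham. For levels they were -0.0665 to 0.61 (Chrnb2, sham minus naive), -0.27 to 0.59 (Chrm2) and -0.27 to 0.40 (Chrnb2) for RIPC minus naive, -0.0225 to 0.84 (Chrm2, RIPC minus sham) and -0.0762 to 0.23 (Chrm2, left minus right). The number of genes called went from 0 to 1 for level, RIPC minus sham (without naive replicate 2), from 0 to 2 for single neurons, sham minus naive (without naive replicate 3, which leaves naive replicate 2 with 3 neurons, assumed to vary like the other groups, so these 2 carry no weight either), and from 5 to 58 for pools minus single neurons. The uneven number of neurons per animal and the share of undetected values limit all of these.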
